A study of Mus musculus with 15 samples.

Results

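The SLC25 mitochondrial carrier family was examined in quadriceps muscle as all genes whose symbol is Slc25a followed by a number. The expression table lists 12529 genes, of which 39 fit this rule. Of the 39, 38 reached a mean of 0.5 FPKM (a read count scaled for transcript length and for the depth of the library) over the 15 libraries and were tested. Slc25a53 did not. The rule uses symbols only, so carriers with other symbols, such as the uncoupling proteins Ucp2 and Ucp3, are not members and are described with the partner genes.

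Libraries were prepared from quadriceps of 3 groups of mice, with 5 libraries in each. Ex mice were wild-type C57BL/6 mice (C57BL/6J in the study's methods) given free access to running wheels for 4 weeks from 8 weeks of age. The mTg mice, also labeled C57BL/6, were sedentary and carry a transgene for Pgc1a (Ppargc1a). It is driven by the muscle creatine kinase promoter, so that the coactivator PGC1α is overexpressed in skeletal muscle. Controls were sedentary wild-type C57BL/6 mice. Per the study's methods the mice were male, and Ex mice were harvested some hours after their last run. The methods also state that transgenic mice were studied with wild-type littermates, and that C57BL/6J mice were bought in, without naming which of these gave the 5 control libraries. The study writes of comparing animals, but no label ties a library to an animal. So p-values are set by the spread among these libraries, which may be partly technical. The same 5 control libraries serve the Ex and the mTg comparison.

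The inner mitochondrial membrane is closed to most polar molecules, and SLC25 proteins are the carriers that let named metabolites across it, usually by swapping a molecule on the inside for another on the outside. They supply ADP and phosphate to ATP synthase and return ATP to the cytosol, bring in acylcarnitines for fatty acid oxidation, move the malate, oxoglutarate, aspartate and glutamate of the redox shuttles, and import cofactors that the mitochondrion cannot make. In skeletal muscle the adenine nucleotide translocase and the phosphate carrier are among the most abundant proteins of this membrane. PGC1α is a transcriptional coactivator known to raise mitochondrial gene expression through partners such as the estrogen-related receptors (ERR) and nuclear respiratory factors (NRF).

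Proximal promoters of 4 members are shown. They were chosen as those called at least 1.5-fold higher in mTg than in controls whose promoter holds a match to a motif searched. That each holds a match therefore follows from the choice. Slc25a34 had the largest rise of the family in both comparisons with controls on the log2(FPKM + 1) scale. Slc25a20 had the largest change of a carrier for fatty acid oxidation, and Slc25a4 and Slc25a3 had the highest levels. Each runs 5′ to 3′ on the strand of the gene, from 250 bases before to 50 bases after the RefSeq start site, and was taken from RefSeq on build GRCm38.p6. Capitals mark matches to the motifs searched.
Slc25a34, chr4:141623785-141624084, minus strand: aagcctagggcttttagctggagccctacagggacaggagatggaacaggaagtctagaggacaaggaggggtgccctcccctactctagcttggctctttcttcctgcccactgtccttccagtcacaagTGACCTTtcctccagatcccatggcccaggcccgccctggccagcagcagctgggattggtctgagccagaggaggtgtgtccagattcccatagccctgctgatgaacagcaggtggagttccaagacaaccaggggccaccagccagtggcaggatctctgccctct
Slc25a20, chr9:108661886-108662185, plus strand: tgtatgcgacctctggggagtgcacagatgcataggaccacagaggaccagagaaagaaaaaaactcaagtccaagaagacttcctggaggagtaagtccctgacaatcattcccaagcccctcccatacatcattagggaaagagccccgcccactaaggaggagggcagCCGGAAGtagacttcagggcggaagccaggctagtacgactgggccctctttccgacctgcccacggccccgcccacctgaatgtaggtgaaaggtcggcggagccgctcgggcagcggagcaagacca
Slc25a4, chr8:46211013-46211312, minus strand: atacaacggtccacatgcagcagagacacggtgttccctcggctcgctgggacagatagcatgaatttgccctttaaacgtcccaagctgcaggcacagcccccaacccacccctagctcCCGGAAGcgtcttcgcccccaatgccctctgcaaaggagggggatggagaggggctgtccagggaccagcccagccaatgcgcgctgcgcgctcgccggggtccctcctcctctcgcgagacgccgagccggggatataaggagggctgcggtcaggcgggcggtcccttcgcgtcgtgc
Slc25a3, chr10:91123918-91124217, minus strand: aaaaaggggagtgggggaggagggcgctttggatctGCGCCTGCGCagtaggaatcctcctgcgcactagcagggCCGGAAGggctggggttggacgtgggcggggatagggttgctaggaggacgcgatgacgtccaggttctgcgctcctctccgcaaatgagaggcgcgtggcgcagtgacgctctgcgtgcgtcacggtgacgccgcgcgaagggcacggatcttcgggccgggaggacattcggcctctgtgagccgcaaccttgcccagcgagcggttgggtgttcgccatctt
In Slc25a34 the capitals are the core letters of an ERR site, AAGGTCA, read from the opposite strand and beginning at position -119 from the start site. In Slc25a20 and Slc25a4 they are the ETS letters CCGGAAG, at positions -79 and -130. Slc25a3 holds a match to the NRF1 site at position -214 and the ETS letters at position -175.

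The same 4 motifs were searched on both strands in the promoters of all 39 members, which all matched a RefSeq entry. The ERR core AAGGTCA was found in 1 of 39, that of Slc25a34, beside 3.25% of the promoters of listed genes and 4.72% of all promoters. The longer ERR element TNAAGGTCA, which contains the core, was found in 0 of 39, beside 0.743% and 1.28%. ETS letters were present in 6 of 39 (Slc25a3, Slc25a4, Slc25a17, Slc25a20, Slc25a25 and Slc25a38), which is 15.4% of the members beside 16.7% of listed genes and 8.86% of all promoters. The NRF1 site occurred in 1 of 39, beside 9.66% and 4.6%. These matches describe letters within this window and do not show binding.

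Reads on the listed genes, recovered from the FPKM, ranged from 14098168 to 16876751 in Ex libraries, 11475817 to 15381111 in mTg libraries and 15686582 to 16917490 in controls. Ppargc1a, the gene of the transgene, stood at 50.1 to 56.8 FPKM in mTg libraries and at 5.06 to 12.5 in controls, while Ex libraries held 4.87 to 7.34 FPKM. Muscle fiber markers (Acta1, Ckm, Myh4 and Tnnt3) were the most abundant marker list in every group, with sums of 60960 to 68180 FPKM in Ex, 49050 to 58360 in mTg and 69470 to 77570 in controls. Of these 4 genes, 3 fell in Ex (Ckm, Myh4 and Tnnt3) and 4 in mTg. Acta1 did not pass in Ex (-0.003 on the log2 scale). Myh4 is the isoform by which the study defines type IIb fibers, so it does not stand for all fibers. Endothelial markers moved the other way, with 3 of 4 higher in Ex and 4 of 4 higher in mTg, and sums of 97.4 to 122 FPKM in Ex, 108 to 159 in mTg and 69.4 to 96.1 in controls. All marker counts here stand beside 22.3% of all genes tested called higher and 23.1% lower in mTg, and 5.39% higher and 5.02% lower in Ex. The marker lists were chosen with earlier results of these data known. In mTg libraries all 3 Schwann cell markers were lower, as was the satellite cell marker Pax7, and 1 of 4 macrophage markers (Cd68) was higher. Of 4 fibroblast markers, 2 were higher (Col1a1 and Col3a1) and 1 lower (Dcn) in mTg. None of the 4 adipocyte markers passed in mTg, and 1 (Lep, -0.48 on the log2 scale) was lower in Ex. Cidea, the 1 brown adipocyte marker tested, was higher in mTg (2.02). Whether these shifts in marker levels or the lower depth of mTg libraries take part in the results for the carriers was not tested. In bulk muscle, more cells of a type and more RNA per cell cannot be told apart.

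Carrier transcripts spanned a wide range of levels. Slc25a4, the muscle adenine nucleotide translocase, averaged 3613 ± 188 FPKM in Ex, 6178 ± 612 in mTg and 3647 ± 311 in controls (SD, n = 5 each), and alone held 72.1% to 77.0% of the summed FPKM of the family in the 15 libraries. Slc25a3, the phosphate carrier, came next, followed by Slc25a11, Slc25a12 and Slc25a20. At the other end Slc25a53, an orphan carrier, ranged over 0.168 to 0.338 FPKM in Ex, 0.152 to 0.318 in mTg and 0.159 to 0.343 in controls. The summed FPKM of the 39 members was 4869 ± 206.9 in Ex, 8398 ± 666.5 in mTg and 4819 ± 346.4 in controls, and made up 1.12%, 1.83% and 1.03% of all FPKM in these groups. Without Slc25a4 the sums were 1255 ± 47.7 in Ex, 2220 ± 78.4 in mTg and 1172 ± 44.0 in controls. These sums are a description, with no test.

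**Figure D1:**
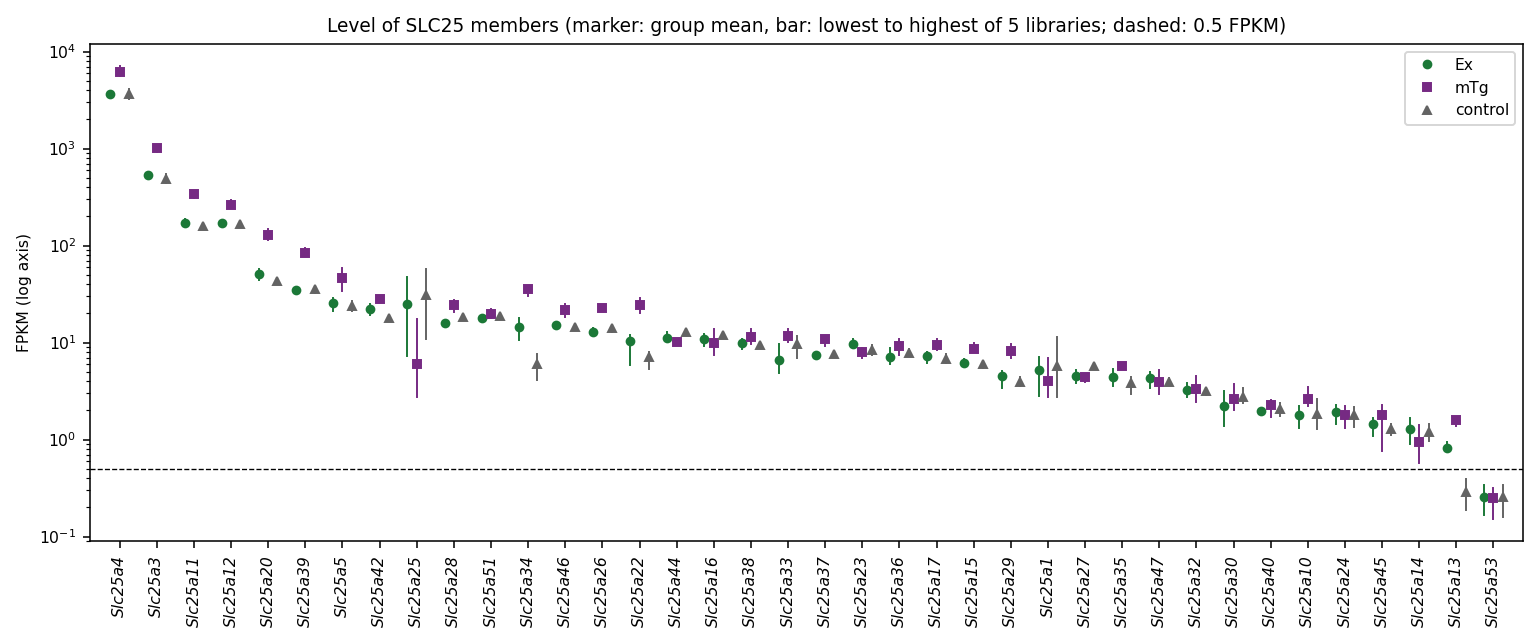
Level of 38 of the 39 SLC25 members in Ex, mTg and control libraries in FPKM on a log axis, with members ordered by their mean over 15 libraries. Markers are group means, bars run from the lowest to the highest of 5 libraries, and the dashed line is the 0.5 FPKM minimum for testing, below which only Slc25a53 falls by its mean over all libraries.

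The effect of muscle-specific Pgc1a overexpression on the family was examined by comparing mTg with control libraries. Of the 38 members tested, 22 rose and 3 fell in mTg muscle, which is 57.9% and 7.89% of the members. Over all 11674 genes tested the same rule (limma on log2(FPKM + 1), Benjamini-Hochberg adjusted p under 0.05) called 22.3% higher and 23.1% lower. At an unadjusted p under 0.05, 27 members passed (71.1%, beside 52.6% of all genes). A change of at least 1.5-fold on that scale was reached by 14 members that rose and by 1 that fell, against 8.14% and 4.81% of all genes. The median log2 fold change was 0.41 over the members and -0.02 over all genes. In 20 members every mTg library was above every control library, and in 2 every mTg library was below, while such separation was seen for 16.3% and 16.0% of all genes.

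Chronic wheel running changed fewer members. In Ex relative to control muscle 4 members rose and 2 fell, 10.5% and 5.26% of the 38, beside 5.39% and 5.02% of all genes (10.4% in either direction). At least 1.5-fold on the log2(FPKM + 1) scale was reached by 1 member, Slc25a34, among those higher, beside 0.951% of all genes. Slc25a13, with few reads, was below 1.5-fold on that scale and at 2.86 by the ratio of group means. The 4 that rose were Slc25a34, Slc25a13, Slc25a42 and Slc25a20, and all 4 also rose in mTg. Both comparisons use the same control libraries, and the share of all genes higher in both was not counted. This overlap is therefore not read as a trait of the family. Those that fell were Slc25a27, which also fell in mTg, and Slc25a28, which rose in mTg. At an unadjusted p under 0.05, 12 members passed (31.6%, beside 26.6% of all genes). Groups did not overlap for 5 members higher and 2 lower in Ex, against 4.92% and 4.69% of all genes. The median log2 fold change was 0.05 over members and -0.01 over all genes. The Ex result depended on the scaling: with every library rescaled to the same summed FPKM, 9 members were higher, and neither Slc25a27 (adjusted p = 0.0561) nor Slc25a28 (adjusted p = 0.225) passed as lower. Under that scaling the split over all genes was 1224 higher and 208 lower, against 629 and 586 with FPKM as deposited. Members higher only after rescaling were Slc25a3, Slc25a11, Slc25a12, Slc25a22 and Slc25a23.

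Ex and mTg libraries were also compared directly. Of the 38 members, 2 were higher in Ex (Slc25a25 and Slc25a23) and 23 were lower, and 14 of the lower members differed by at least 1.5-fold. Over all genes 20.7% were higher and 20.7% lower in Ex (41.3% in either direction), and 6.74% were lower by at least 1.5-fold. Slc25a25 was the 1 member higher by at least 1.5-fold, beside 4.21% of all genes. At an unadjusted p under 0.05, 25 members passed (65.8%, beside 49.3% of all genes), and the groups did not overlap for 1 member higher and 21 lower, beside 14.2% and 14.9% of all genes. The median log2 fold change, Ex over mTg, was -0.36 over members and 0.02 over all genes. Rescaled to the same summed FPKM, 2 members were higher and 22 lower, while the split over all genes became 3042 higher and 1902 lower, against 2414 and 2413.

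**Figure D2:**
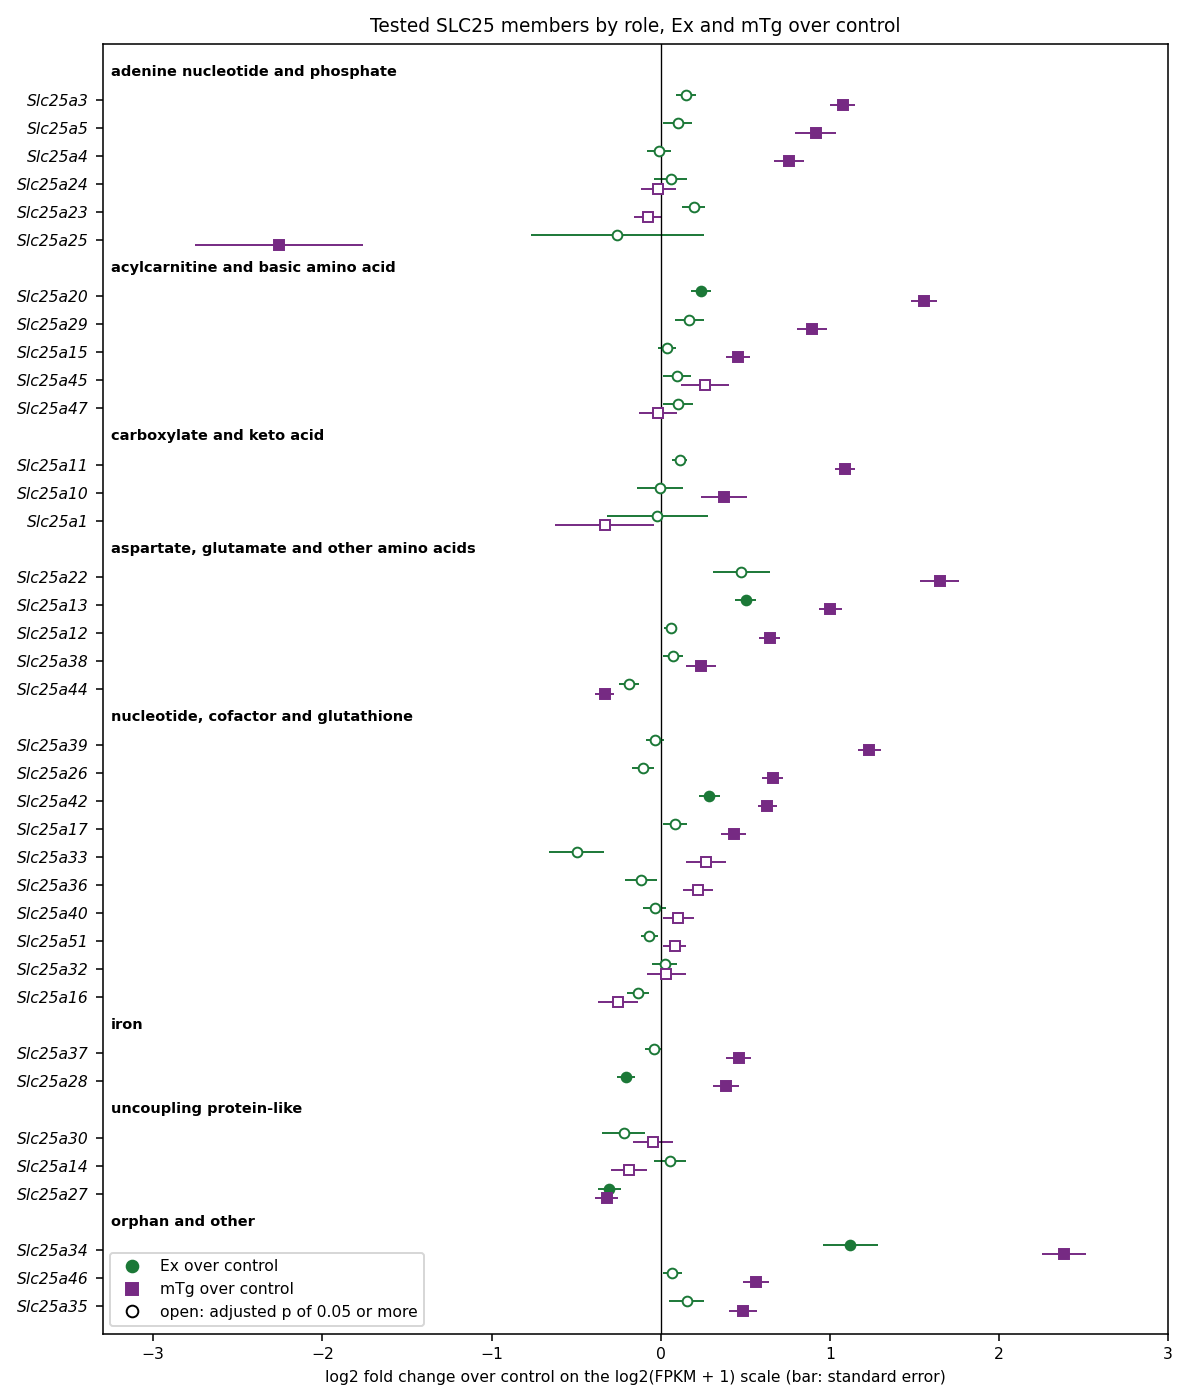
Log2 fold change over controls on the log2(FPKM + 1) scale for 37 of the 38 tested members, grouped by role, with Ex as circles and mTg as squares. Bars are standard errors, and filled symbols have an adjusted p under 0.05. Most mTg squares lie right of 0, with Slc25a34 farthest right at 2.38 and Slc25a25 farthest left at -2.26, while most Ex circles lie near 0.

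Of 6 carriers of adenine nucleotides and phosphate, 3 rose and 1 fell in mTg muscle, beside 22.3% and 23.1% of all genes, and none was called in Ex muscle. In what follows, values in parentheses are log2 fold changes on the log2(FPKM + 1) scale ± standard error, over controls unless another comparison is named, with limma's adjusted p. Slc25a4 swaps cytosolic ADP for mitochondrial ATP. Its FPKM was 7022, 5891, 6618, 5597 and 5763 in mTg libraries 1 to 5, against 3558, 3240, 3594, 3749 and 4093 in control libraries 1 to 5. Every mTg library exceeded every control (0.76 ± 0.088, adjusted p = 1.26e-05). Ex libraries held 3306, 3711, 3630, 3616 and 3805 FPKM of Slc25a4, within the control range, and its log2 fold change was -0.01 ± 0.069, adjusted p = 0.943. Slc25a3 imports the phosphate that ATP synthase joins to ADP. Its level was 1041, 1036, 1080, 995 and 929 FPKM in mTg libraries, against 466, 442, 461, 498 and 545 in controls. That is 2.11 times the control mean (1.07 ± 0.072, adjusted p = 8.87e-08), with no overlap between groups. Slc25a3 stood at 542, 561, 528, 512 and 532 FPKM in Ex libraries, overlapping the controls (0.15 ± 0.059, adjusted p = 0.122), and passed as higher without control library 5 (0.20, adjusted p = 0.0253). Slc25a5, the translocase isoform known from proliferating tissues, was far below Slc25a4. It read 33.8, 45.4, 58.3, 49.98 and 44.99 FPKM in mTg and 20.99, 22.3, 24.8, 26.6 and 24.7 in controls (0.92 ± 0.12, adjusted p = 3.59e-05), and 20.97, 26.7, 29.1, 26.9 and 25 in Ex (0.10 ± 0.086, adjusted p = 0.496). Slc25a4 and Slc25a5 are alike in sequence, and the sources used here do not say how reads matching both were counted.

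The ATP-Mg/phosphate carriers, which exchange adenine nucleotides for phosphate under control of calcium, had calls for Slc25a25 and Slc25a23. Slc25a25 was the only member lower by at least 1.5-fold in mTg muscle. It stood at 3.19, 2.92, 3.51, 17.5 and 2.75 FPKM in mTg libraries, against 10.9, 48.7, 22.3, 57.8 and 14.8 in controls. Thus 4 of 5 mTg libraries lay below every control, and mTg library 4 lay within the control range. The log2 fold change was -2.26 ± 0.49, adjusted p = 0.00227, and -2.69 with adjusted p = 0.000203 without mTg library 4. Ex libraries were also widely spread, at 7.3, 47.8, 33.6, 20.7 and 16.4 FPKM (-0.26 ± 0.51, adjusted p = 0.795), and Ex exceeded mTg (2.002 ± 0.48, adjusted p = 0.00418). Exons of Slc25a25 overlap those of Naif1 on the opposite strand, and the use of strand in counting is not given. Slc25a23 was higher in Ex than in mTg (0.27 ± 0.074, adjusted p = 0.00949), at 9.24 to 10.9 FPKM in Ex, 6.91 to 8.702 in mTg and 7.51 to 9.51 in controls, and passed in neither comparison with controls. Without control library 5 it passed as higher in Ex than in controls (0.24, adjusted p = 0.0383). For Slc25a24 the levels were 1.44 to 2.26 FPKM in Ex, 1.32 to 2.196 in mTg and 1.35 to 2.15 in controls, with no call.

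Among carriers of acylcarnitines and basic amino acids, 3 of 5 rose in mTg and 1 of 5 in Ex, beside 22.3% and 5.39% of all genes. Slc25a20, the carnitine/acylcarnitine carrier that brings long-chain fatty acids in for oxidation, rose in both. Its FPKM was 142, 148, 121, 114 and 120.1 in mTg libraries, against 43.8, 43.4, 43.5, 42.3 and 41.6 in controls. The mTg mean was 3 times that of controls (1.56 ± 0.075, adjusted p = 6.28e-09). Ex libraries read 57.7, 50.6, 50.1, 44.3 and 51.7 FPKM of Slc25a20, all above the highest control, though Ex library 4 only narrowly (0.24 ± 0.060, adjusted p = 0.0282). This Ex call was lost when Ex library 2 or 3 or control library 3 or 4 was left out, with adjusted p up to 0.0641. Slc25a29, which carries basic amino acids, rose in mTg, with 7.699, 6.87, 8.67, 9.73 and 7.49 FPKM in mTg and 3.58, 3.92, 3.77, 3.68 and 4.44 in controls (0.89 ± 0.088, adjusted p = 2.94e-06). Its Ex libraries held 4.84, 4.51, 4.63, 3.44 and 5.11 FPKM, with 4 above and 1 below the control range (0.17 ± 0.086, adjusted p = 0.236), and the difference passed without Ex library 4 (log2 fold change 0.24, adjusted p = 0.0474). Slc25a15, the ornithine carrier of the urea cycle, was higher in mTg, at 8.04 to 9.95 FPKM in mTg and 5.49 to 6.32 in controls (0.46 ± 0.070, adjusted p = 0.000154). Slc25a45 and Slc25a47 had no call, at 1.81 ± 0.607 and 3.95 ± 0.904 FPKM in mTg, against 1.297 ± 0.142 and 3.95 ± 0.283 in controls (SD, n = 5 each). Without mTg library 2, Slc25a45 passed as higher in mTg (log2 fold change 0.42, adjusted p = 0.000553), and as lower in Ex than in mTg (-0.325, adjusted p = 0.0102).

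**Figure D3:**
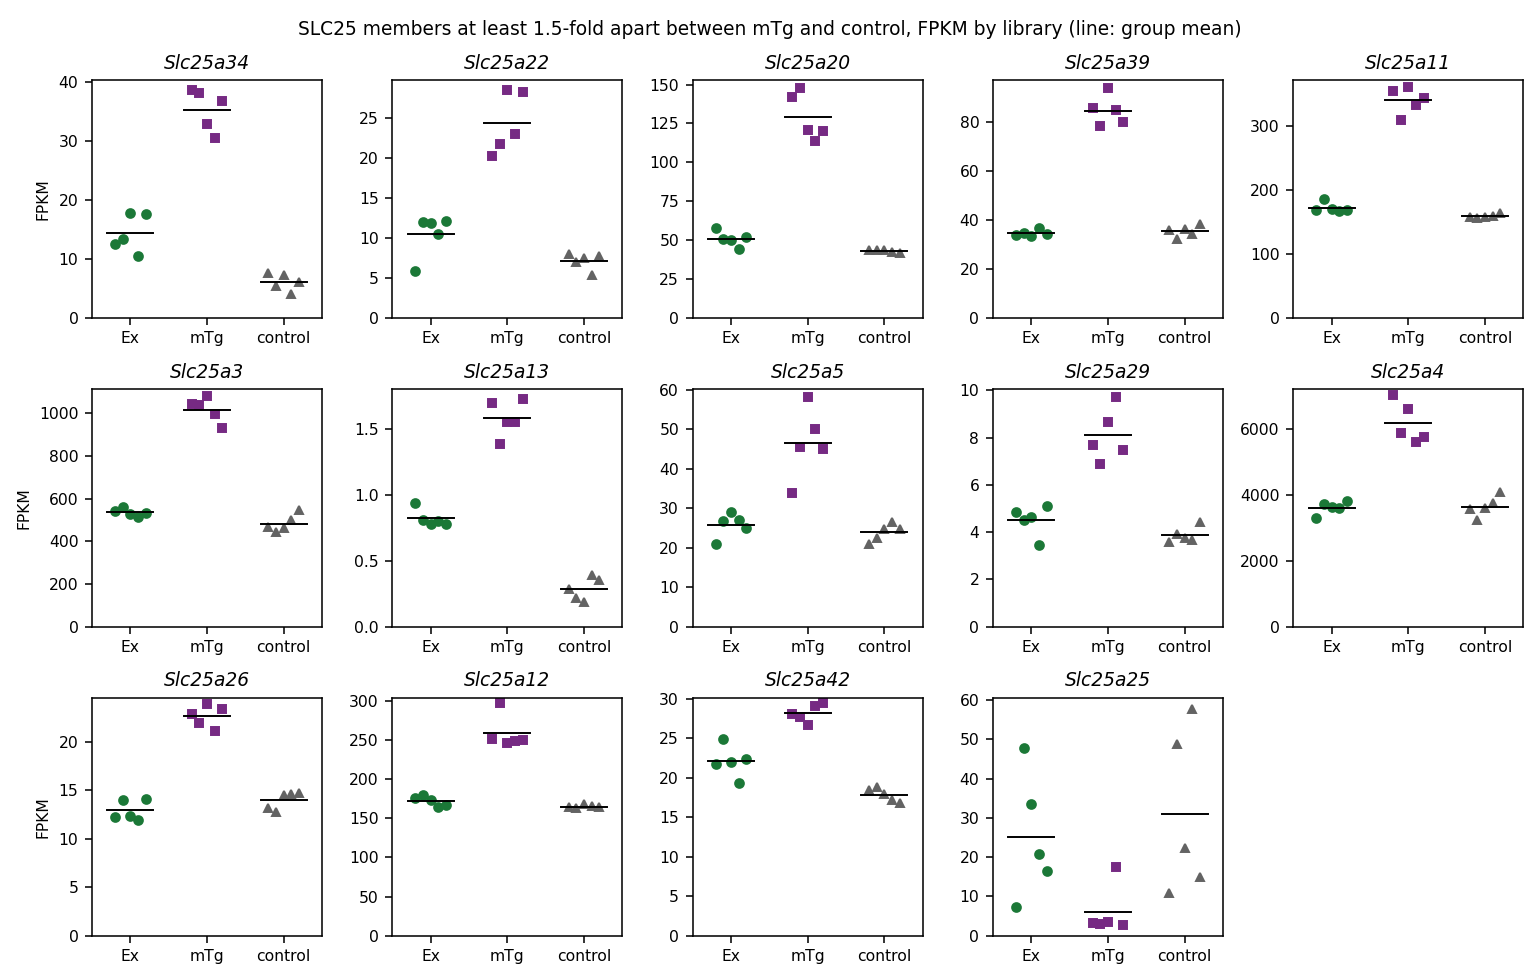
FPKM in each of 5 Ex, 5 mTg and 5 control libraries for 14 of the 15 members with an adjusted p under 0.05 and at least a 1.5-fold difference between mTg and control. Points are libraries, lines are group means, and each panel starts at 0 with its own upper limit. In 13 panels every mTg point lies above every control point, and in the Slc25a25 panel 4 of 5 mTg points lie below the lowest control at 10.9 FPKM.

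Carriers of the malate-aspartate shuttle, which moves reducing equivalents from cytosolic NADH into the mitochondrion, were higher in mTg, beside 22.3% of all genes. Slc25a11 exchanges malate for oxoglutarate and read 356, 310.3, 362, 333 and 344 FPKM in mTg libraries, against 158, 157, 159, 159 and 164 in controls. The level in mTg was 2.14 times that in controls (1.09 ± 0.058, adjusted p = 1.43e-08). Ex libraries held 168, 187, 170.1, 168 and 169 FPKM of Slc25a11. All 5 were above the highest control, by a small margin, and the adjusted p missed the threshold (0.11 ± 0.042, adjusted p = 0.115). Exons of Slc25a11 overlap those of Rnf167 on the opposite strand. Slc25a12 exchanges aspartate for glutamate and is the main such carrier of muscle. It stood at 252.1, 297, 246, 249 and 251 FPKM in mTg, against 164, 163, 168, 166 and 165 in controls, with every mTg library higher (0.64 ± 0.063, adjusted p = 2.63e-06). In Ex libraries Slc25a12 was at 176, 179.6, 173, 164 and 167 FPKM, overlapping controls (0.06 ± 0.040, adjusted p = 0.386).

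Slc25a13, the liver-type aspartate/glutamate carrier, was barely transcribed in control muscle and rose in both models. Its control mean of 0.288 FPKM was below the 0.5 FPKM minimum for testing. It passed that filter (mean 0.896 FPKM over 15 libraries) only through its levels in Ex and mTg. Its calls in the counts of members that rose carry this limit. Its FPKM was 0.936, 0.8098, 0.777, 0.803 and 0.781 in Ex, 1.69, 1.39, 1.55, 1.55 and 1.72 in mTg and 0.284, 0.219, 0.189, 0.393 and 0.354 in controls. These rest on 36 to 48 reads in Ex, 59 to 79 in mTg and 9 to 19 in controls, and the 3 groups did not overlap. The log2 fold change was 0.50 ± 0.062, adjusted p = 0.000529 for Ex and 1.003 ± 0.069, adjusted p = 1.1e-07 for mTg. Because this scale understates changes of weakly expressed genes, the ratios of group means are also given: 2.86 for Ex and 5.49 for mTg. Ex was below mTg (-0.50 ± 0.064, adjusted p = 2.8e-05).

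Of the other amino acid carriers, Slc25a22, which imports glutamate, followed Slc25a34 in mTg on the log2(FPKM + 1) scale, while by the ratio of group means Slc25a13 came between them. It read 20.2, 21.7, 28.5, 23.03 and 28.3 FPKM in mTg, against 7.91, 6.92, 7.43, 5.32 and 7.75 in controls, with no overlap (1.65 ± 0.12, adjusted p = 1.24e-07). In Ex, libraries 2 to 5 were above the highest control, and library 1 was within the control range, the FPKM being 5.81, 11.99, 11.9, 10.5 and 12.1. The Ex difference did not pass (0.48 ± 0.17, adjusted p = 0.0941), and passed without Ex library 1 (log2 fold change 0.65, adjusted p = 0.00329). Slc25a44, the carrier of branched-chain amino acids, fell in mTg, at 9.78, 9.43, 10.1, 10.5 and 10.3 FPKM, against 12.5, 13.3, 13.2, 12.6 and 12.7 in controls. No mTg library reached the lowest control (-0.33 ± 0.057, adjusted p = 0.000363). Ex values of Slc25a44 were 12.8, 10.3, 11.7, 10.2 and 11.04 FPKM, with 4 of 5 below the lowest control (-0.19 ± 0.060, adjusted p = 0.0691), and passed as lower without Ex library 1 (-0.23, adjusted p = 0.0229). Slc25a38, which imports glycine for heme synthesis, passed narrowly as higher in mTg, at 9.69 to 13.8 FPKM in mTg and 8.73 to 9.79 in controls (0.24 ± 0.089, adjusted p = 0.0416). That call was lost when control library 1, 2, 3 or 4 or mTg library 3, 4 or 5 was left out, with adjusted p up to 0.0946. Of the remaining carboxylate carriers, Slc25a10 (dicarboxylates) rose in mTg (0.37 ± 0.13, adjusted p = 0.036) with overlapping groups, at 2.22 to 3.46 FPKM in mTg and 1.29 to 2.64 in controls. This call was lost without control library 1, 3 or 5 or mTg library 3 or 4, with adjusted p up to 0.0911. Slc25a1 (citrate) varied widely within each group, at 2.801 to 7.05 FPKM in Ex, 2.75 to 6.88 in mTg and 2.73 to 11.5 in controls, with no call. Without mTg library 3 it passed as higher in Ex than in mTg (0.49, adjusted p = 0.0396).

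Cofactor and nucleotide carriers formed the largest group, and 5 of 11 rose in mTg while 1 rose in Ex, beside 22.3% and 5.39% of all genes. Slc25a39 imports glutathione, and its FPKM was 85.9, 78.3, 94.1, 84.8 and 80.3 in mTg libraries, against 36.1, 32.3, 36.5, 34.1 and 38.2 in controls. The mTg mean was 2.39 times the control mean (1.23 ± 0.068, adjusted p = 1.83e-08). Ex libraries stayed in the control range, at 33.98, 34.7, 33.3, 36.8 and 34.1 FPKM (-0.03 ± 0.051, adjusted p = 0.729). Slc25a42 carries coenzyme A, and was the cofactor carrier that rose in both models. It stood at 21.8, 24.9, 21.96, 19.3 and 22.3 FPKM in Ex, 28.03, 27.7, 26.6, 29.02 and 29.4 in mTg and 18.5, 18.8, 17.97, 17.1 and 16.8 in controls. Every Ex library was above every control and below every mTg library, with log2 fold changes of 0.29 ± 0.063, adjusted p = 0.0139 for Ex and 0.63 ± 0.058, adjusted p = 1.46e-06 for mTg. Slc25a26 imports S-adenosylmethionine, the methyl donor, and read 22.9, 21.9, 23.9, 21.1 and 23.4 FPKM in mTg and 13.2, 12.7, 14.6, 14.6 and 14.8 in controls (0.66 ± 0.064, adjusted p = 2.55e-06). Slc25a26 in Ex was at 12.2, 13.98, 12.4, 11.98 and 14.1 FPKM, overlapping controls. Its exons overlap those of Lrig1 on the opposite strand.

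Slc25a33, a pyrimidine nucleotide carrier, separated the models without passing against controls in either. Its FPKM was 4.899, 6.81, 6.73, 4.99 and 9.74 in Ex, 12.9, 10.1, 13.8, 11.1 and 10.7 in mTg and 6.99, 9.32, 11.8, 9.94 and 10.1 in controls. Every Ex library was below every mTg library (-0.76 ± 0.14, adjusted p = 0.000812), while controls overlapped both, with -0.50 ± 0.16, adjusted p = 0.0708 for Ex and 0.27 ± 0.12, adjusted p = 0.081 for mTg. The Ex difference from controls passed as lower without Ex library 5 (log2 fold change -0.63, adjusted p = 0.0126) or without control library 1 (-0.595, adjusted p = 0.0408), and the mTg difference passed as higher without control library 3 (0.34, adjusted p = 0.0329). Its relative Slc25a36 was lower in Ex than in mTg (-0.34 ± 0.11, adjusted p = 0.0251), at 6.03 to 8.81 FPKM in Ex and 7.41 to 10.9 in mTg, a call lost without Ex library 2, 3 or 5 or mTg library 3 or 5, with adjusted p up to 0.0681. Without mTg library 1, Slc25a36 passed as higher in mTg than in controls (0.29, adjusted p = 0.00872). Slc25a17, a peroxisomal carrier of cofactors, rose in mTg (0.43 ± 0.075, adjusted p = 0.000412), at 8.47 to 10.9 FPKM in mTg and 6.18 to 7.54 in controls. Slc25a16, Slc25a32, Slc25a40 and Slc25a51, the last a carrier of NAD, had no call in any comparison, with mTg means of 10 ± 2.45, 3.33 ± 0.8302, 2.29 ± 0.357 and 19.8 ± 1.76 FPKM, against 11.9 ± 0.399, 3.18 ± 0.255, 2.06 ± 0.257 and 18.6 ± 0.696 in controls (SD, n = 5 each). Without mTg library 2, Slc25a16 passed as lower in mTg (log2 fold change -0.37, adjusted p = 0.00351), and without mTg library 4, Slc25a40 passed as lower in Ex than in mTg (-0.205, adjusted p = 0.0396).

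Iron enters mitochondria through the mitoferrins, and both were higher in mTg, beside 22.3% of all genes. A count over 2 genes is too small to tell from that share. Slc25a28, mitoferrin 2, read 15.6, 14.7, 17.03, 15.4 and 16.1 FPKM in Ex, 25.9, 20.5, 27.6, 24.5 and 22.99 in mTg and 19.3, 17.1, 19.3, 18 and 17.8 in controls. All Ex libraries were below, and all mTg libraries above, every control. The log2 fold change was -0.20 ± 0.053, adjusted p = 0.0294 for Ex, 0.39 ± 0.078, adjusted p = 0.00132 for mTg and -0.59 ± 0.079, adjusted p = 4.37e-05 for Ex over mTg. The Ex call was lost without Ex library 1, 2 or 4 or control library 1, 3 or 4, with adjusted p up to 0.0749. Slc25a37, mitoferrin 1, known from red cell precursors, rose in mTg only among these comparisons with controls, at 7.11 to 8.05 FPKM in Ex, 9.24 to 11.8 in mTg and 7.42 to 8.19 in controls (0.46 ± 0.072, adjusted p = 0.000175). Alas2, a heme synthesis enzyme of red cell precursors and the 1 erythroid marker of 4 in the table, was also higher in mTg (0.71 ± 0.20, adjusted p = 0.0115), at 1.46 to 5.19 FPKM in mTg and 0.979 to 1.92 in controls, and its part in the Slc25a37 result was not tested.

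None of the 3 members related to uncoupling proteins was called higher in mTg, beside 22.3% of all genes, a count too small to tell from that share. Ucp2 and Ucp3, which are not members and are described with the partner genes, rose there. Slc25a27 (UCP4) fell in both models, with 4.51, 4.34, 4.49, 3.82 and 5.23 FPKM in Ex, 4.26, 4.69, 4.698, 3.903 and 4.49 in mTg and 6.08, 5.59, 5.77, 5.29 and 5.99 in controls. Every Ex and every mTg library was below the lowest control. The log2 fold change was -0.30 ± 0.069, adjusted p = 0.0167 for Ex and -0.32 ± 0.067, adjusted p = 0.00169 for mTg, and Ex and mTg were not called apart (0.02 ± 0.078, adjusted p = 0.889). Slc25a14 (UCP5) and Slc25a30 had no call, at 1.296 ± 0.274 and 2.24 ± 0.638 FPKM in Ex, 0.948 ± 0.315 and 2.64 ± 0.659 in mTg, and 1.204 ± 0.206 and 2.73 ± 0.434 in controls (SD, n = 5 each). Without mTg library 3, Slc25a14 passed as lower in mTg than in controls (log2 fold change -0.27, adjusted p = 0.0345) and as higher in Ex than in mTg (0.33, adjusted p = 0.0236), the second also without Ex library 3 (0.31, adjusted p = 0.0467).

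Slc25a34, an orphan carrier with no settled substrate, had the largest rise of the family in both models on the log2(FPKM + 1) scale, while by the ratio of group means Slc25a13 rose more in Ex. Its FPKM was 12.5, 13.4, 17.8, 10.6 and 17.7 in Ex, 38.6, 38.1, 32.9, 30.5 and 36.8 in mTg and 7.58, 5.37, 7.296, 4.07 and 6.07 in controls. The 3 groups formed separate bands, with Ex between controls and mTg. Ex averaged 2.37 times the control mean (1.12 ± 0.16, adjusted p = 0.00161) and mTg 5.83 times (2.38 ± 0.13, adjusted p = 1.74e-08). Ex was below mTg (-1.26 ± 0.13, adjusted p = 2.76e-06). The gene lies on the minus strand of chromosome 4 (mm10, chr4:141618824-141623821), and its promoter, printed above, holds the ERR core letters. That is 1 of 39 member promoters, beside 3.25% of the promoters of listed genes, and a part of these letters in the rise was not tested. Slc25a35, its closest relative, rose in mTg (0.49 ± 0.084, adjusted p = 0.000363), at 5.53, 5.98, 5.33, 6.08 and 5.88 FPKM in mTg, against 4.16, 4.38, 2.97, 3.92 and 3.76 in controls, with no overlap. Slc25a35 in Ex was at 4.83, 5.38, 4.19, 4.02 and 3.53 FPKM (0.15 ± 0.10, adjusted p = 0.376), and its exons overlap those of Rangrf on the opposite strand. Slc25a46, an outer membrane protein that takes part in mitochondrial fission and fusion, rose in mTg (0.56 ± 0.079, adjusted p = 6.66e-05), at 18.1 to 24.9 FPKM in mTg and 13.5 to 14.99 in controls. Its exons overlap B930094E09Rik on the opposite strand.

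To ask whether related carriers shifted relative to each other, the share of the first gene in the summed FPKM of a pair was compared in 7 pairs, each over 3 comparisons, by two-sided exact permutation with p adjusted across the 21 results. The smallest p that 5 against 5 libraries can give is 0.00794. Slc25a34 took 76.0% ± 5.64 of the Slc25a34 and Slc25a35 total in Ex, 85.9% ± 1.52 in mTg and 60.7% ± 7.92 in controls (SD, n = 5 each). The Ex range of 71.4% to 83.4% and the mTg range of 83.4% to 87.5% both lay above the control range of 50.9% to 71.0% (exact permutation test, adjusted p = 0.0238 for each comparison, Ex over mTg included). Leaving out any 1 mTg library ended that call between Ex and mTg, with adjusted p from 0.0556 to 0.0833, while leaving out an Ex library did not. Every Ex share (at most 83.35%) still lay below every mTg share (at least 83.4%) in these alternatives, by a narrow gap. The cause of the loss was not tested. Slc25a39 took 97.3% ± 0.512 of its total with Slc25a40 in mTg and 94.5% ± 0.921 in controls (exact permutation test, adjusted p = 0.0238, n = 5 each), and 94.6% ± 0.371 in Ex. Slc25a12 held nearly all of its total with Slc25a13, at 99.5% ± 0.0339 in Ex, 99.4% ± 0.0865 in mTg and 99.8% ± 0.0523 in controls (adjusted p = 0.0238 for Ex and for mTg against controls, exact permutation test, n = 5 each). For Ex over mTg the adjusted p was 0.0667, and 0.0238 without mTg library 2. Slc25a25 took 68.8% ± 13.6 of its total with Slc25a24 in mTg and 92.6% ± 3.73 in controls (exact permutation test, adjusted p = 0.0667, n = 5 each), and without mTg library 4 the adjusted p was 0.0208, as it was for Ex over mTg. Slc25a4 held 99.2% ± 0.164 of its total with Slc25a5 in mTg and 99.3% ± 0.0548 in controls, a difference that did not pass (exact permutation test, adjusted p = 0.344, n = 5 each) with all libraries and passed without mTg library 1 (adjusted p = 0.0238). The shares of Slc25a28 with Slc25a37 and of Slc25a33 with Slc25a36 did not pass in any comparison, with adjusted p between 0.0909 and 0.842.

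**Figure D4:**
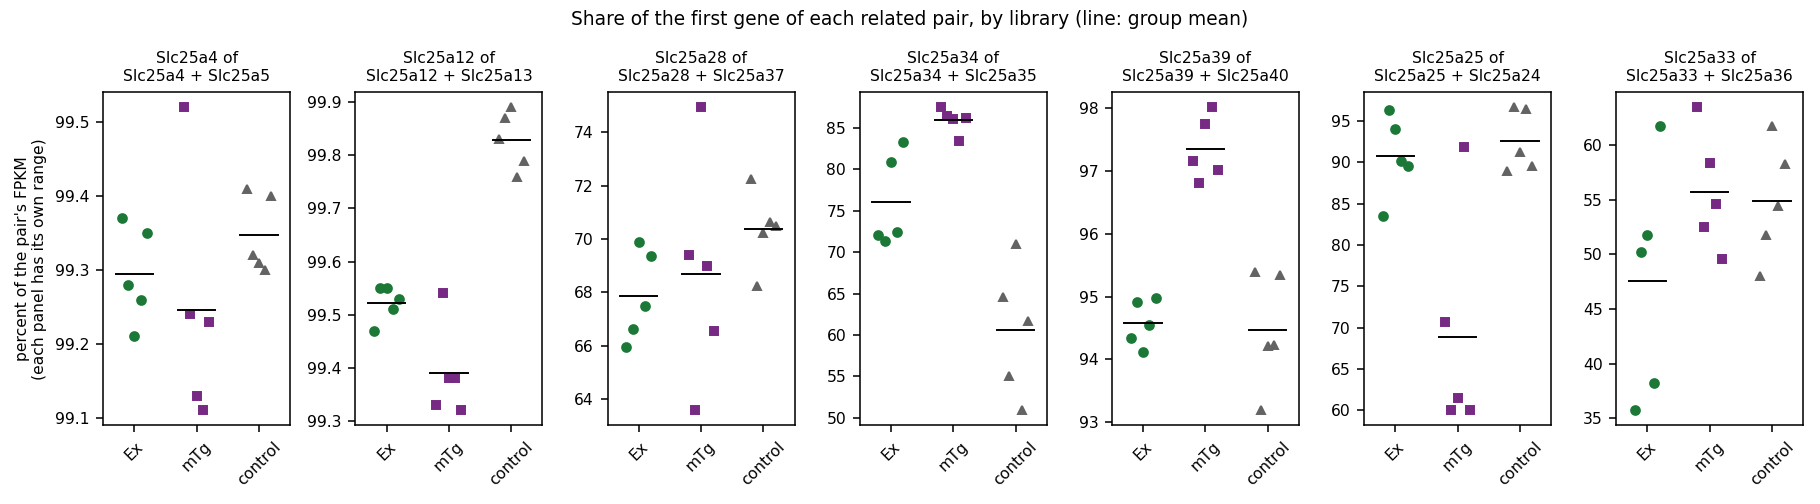
Percent of a pair's summed FPKM held by its first gene, in each of 5 Ex, 5 mTg and 5 control libraries. Points are libraries and lines are group means, and each panel has its own vertical range, which does not start at 0. In the panel of Slc25a34 and Slc25a35, Ex (71.4% to 83.4%) and mTg (83.4% to 87.5%) lie above controls (50.9% to 71.0%), and in that of Slc25a39 and Slc25a40 only mTg lies apart.

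Genes that work beside the carriers were counted from lists, whose counts stand beside 22.3% of all genes higher and 23.1% lower in mTg, and 5.39% higher and 5.02% lower in Ex. These lists were chosen with earlier results of these data known, so their counts are a description and not independent of the data. Of carrier family genes with other symbols, 4 of 4 rose in mTg and 2 of 4 in Ex. Ucp3, the muscle uncoupling protein, was at 155 ± 19.3 FPKM in mTg and 61.7 ± 15.7 in controls (SD, n = 5 each, 1.34 ± 0.14, adjusted p = 4.77e-06). Ucp2, its relative found in many tissues, rose in Ex (0.73 ± 0.12, adjusted p = 0.00358) and in mTg (0.47 ± 0.13, adjusted p = 0.0102), with 13.7 to 19.5 FPKM in Ex, 11.4 to 17.4 in mTg and 7.24 to 12.04 in controls, and Ex and mTg were not called apart (adjusted p = 0.0825). Of 15 other transport proteins of the inner membrane, 9 rose in mTg, led by the pyruvate carrier subunits Mpc2 (1.39 ± 0.11, adjusted p = 2.78e-07) and Mpc1 (0.96 ± 0.077, adjusted p = 4.63e-07), and by Abcb10 (0.98) and the ion exchanger gene Letm1 (1.0). In Ex 3 of these 15 rose, among them Letm1 and the calcium uptake regulator Micu2 (0.37 ± 0.063, adjusted p = 0.00381). Outer membrane channels Vdac1, Vdac2 and Vdac3, through which metabolites reach the carriers, all rose in mTg, by 0.47, 0.59 and 0.36 on the log2 scale, and the cholesterol-binding Tspo rose in Ex (0.33).

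The enzymes on either side of these carriers were counted against the same shares of all genes, 22.3% higher in mTg and 5.39% higher in Ex. Their lists, too, were chosen with earlier results of these data known. In the carnitine shuttle 5 of 5 genes rose, led by Cpt2, the enzyme that acts inside the membrane from Slc25a20 (1.498 ± 0.097, adjusted p = 6.89e-08), and in Ex 1 of 5 rose, also Cpt2 (0.33 ± 0.063, adjusted p = 0.00751). Among enzymes of the cytosolic NADH shuttles, the 4 of the malate-aspartate shuttle rose in mTg, with log2 fold changes of 1.69 for Got1, 1.61 for Got2, 1.61 for Mdh1 and 1.16 for Mdh2. The 2 glycerol phosphate shuttle enzymes, Gpd1 and Gpd2, which need no carrier, fell in both models. Gpd2 read 38.9 to 44.4 FPKM in Ex, 32.9 to 37.9 in mTg and 54.8 to 64.98 in controls (-0.48 ± 0.063, adjusted p = 0.000762 for Ex, and -0.71 ± 0.069, adjusted p = 2.64e-06 for mTg). In Ex 3 of the 4 malate-aspartate enzymes rose, Mdh1 (0.51), Got2 (0.41) and Got1 (0.18). Of 9 enzymes of branched-chain amino acid breakdown, 5 rose in mTg, led by Bckdha (0.77 ± 0.064, adjusted p = 5.9e-07), while Slc25a44, the carrier for these amino acids, fell there, and in Ex 1 of 9 was lower (Bckdk, -0.24). All 4 mitochondrial creatine and adenylate kinases in the table rose in mTg, led by Ckmt2, which passes a phosphate group of ATP exported by Slc25a4 to creatine. Ckmt2 stood at 4514 ± 314 FPKM in mTg and 1074 ± 203 in controls (SD, n = 5 each, 2.09 ± 0.11, adjusted p = 1.22e-08). Ckmt2 also rose in Ex (0.49 ± 0.10, adjusted p = 0.0121), where Slc25a4 had no call.

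**Figure D5:**
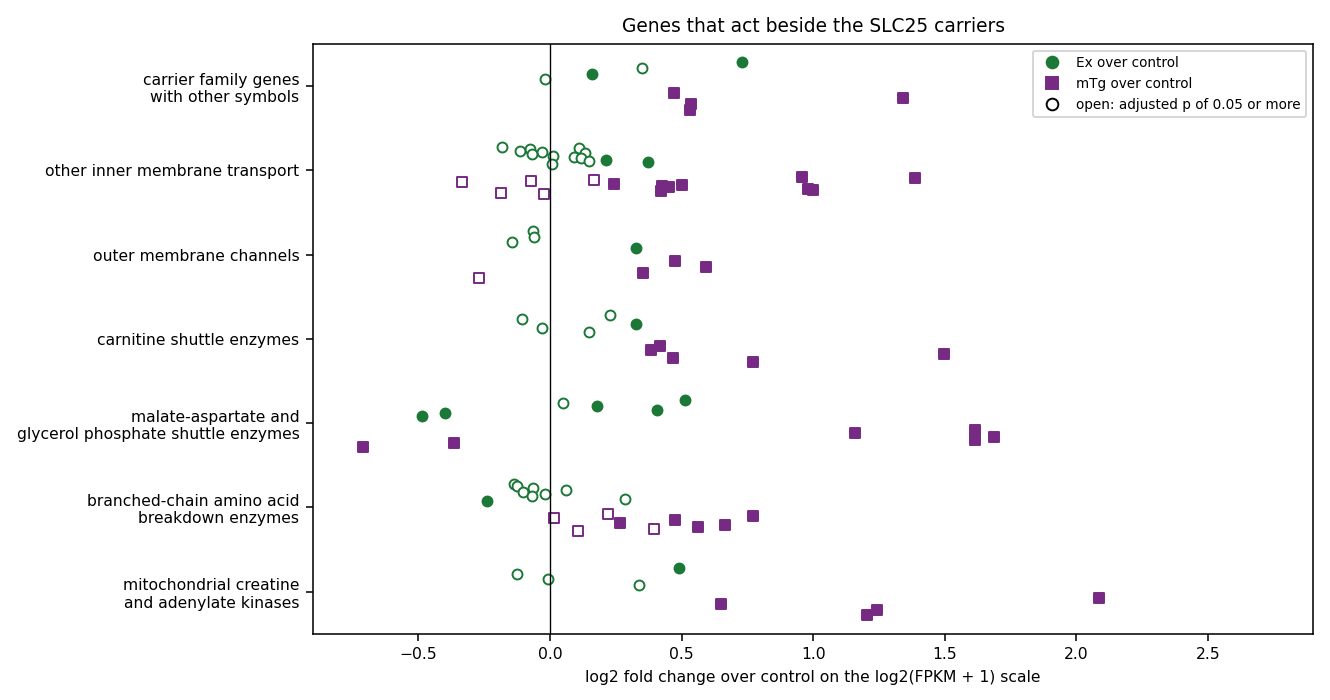
Log2 fold change over controls on the log2(FPKM + 1) scale of genes in 7 lists of proteins that act beside the carriers, with Ex as circles, mTg as squares and each symbol standing for 1 gene. Filled symbols have an adjusted p under 0.05. Mpc2, Cpt2, Got1, Got2, Mdh1 and Ckmt2 lie farthest right in mTg, Ckmt2 at 2.09, and the glycerol phosphate enzyme Gpd2 lies left of 0 in both models.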

How the data were processed

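RNA was measured in 15 quadriceps libraries, 5 each of Ex, mTg and control muscle. Polyadenylated RNA was sequenced as stranded single-end reads, which the authors aligned with STAR to mouse build mm10. The FPKM values were deposited by the authors in a single table over all libraries. The sources used here do not give the gene annotation, the use of strand in counting or how multi-mapping reads were handled. Deposited tables of the authors' own comparisons hold log2 fold changes, standard errors, p-values and mean counts, and were not used.

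The 11674 of 12529 genes whose mean over the 15 libraries reached 0.5 FPKM were tested with limma 3.58.1 in R 4.3.3 on log2(FPKM + 1), using a mean-dependent prior. Each comparison was fitted on its own 10 libraries, with Benjamini-Hochberg adjustment over all genes tested and a threshold of 0.05. Fold changes on this scale understate changes of weakly expressed genes. Whole reads were recovered from the FPKM for 12529 of 12529 genes, within 0.01 of a whole number, which gave each library's depth and allowed limma voom as an alternative. Other computations used Python 3.11.15, numpy 2.4.6 and pandas 2.3.3. The fit was tested on simulated data with known changes and the same spread setting for all genes. Spread differs between genes in the real libraries, so no result here rests on that run. Counting noise was exceeded between all replicates, so none was counted as a repeat.

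Members past the threshold with at least a 1.5-fold change in any comparison, and the 5 members of highest level, are given with every library's value. At most 4 genes are named per partner list and comparison where the list is described, mostly those of smallest p. The enzymes of the cytosolic NADH shuttles are an exception, and all of them are named. Values of 1 member and 1 partner gene are not reported here, though both count in the totals. Members and lists were chosen with earlier results of these data known. Alternatives covered the pseudocount, the filter, 2 scalings, voom, a fit on all 15 libraries, the replicate number as a block and leaving out each library. Replicate numbers were not treated as pairs.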

Additional observations from a re-analysis of the deposited data

Results flagged for a closer look

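In 117 groups of 5 libraries (39 members in 3 groups), 6 held a library whose gap to the nearest other exceeded 0.71 of the group's range, where chance would give about 5.85 at 1 in 20. Slc25a25 stood at 17.5 FPKM in mTg library 4, with the next mTg library at 3.51. In Ex library 1, Slc25a22 was at 5.81 FPKM, with the nearest Ex library at 10.5, and Slc25a13 at 0.936, with the nearest at 0.810. Slc25a12 reached 297 FPKM and Slc25a45 only 0.760 FPKM in mTg library 2, where the nearest mTg libraries were at 252.1 and 1.89. Slc25a11 was at 187 FPKM in Ex library 2, with the nearest Ex library at 170.1.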

How the results depend on the processing

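Counts of members higher and lower were unchanged by a pseudocount of 0.1 FPKM, no filter, median-of-ratios scaling and voom on recovered reads, at 4 and 2 for Ex over control, 22 and 3 for mTg over control, and 2 and 23 for Ex over mTg. Rescaling to the same summed FPKM gave 9 and 0 for Ex over control, with 14 and 2 at an unadjusted p under 0.05, and the fit on all 15 libraries gave 3 and 1, where Slc25a20 (adjusted p = 0.0682) and Slc25a28 (adjusted p = 0.0902) were lost. A filter at 1 FPKM removed Slc25a13.

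Leaving out 1 library gave 3 to 6 members higher and 1 to 3 lower for Ex over control, 20 to 23 and 3 to 4 for mTg over control, and 2 to 4 and 22 to 24 for Ex over mTg. Over all genes, Ex over control then gave 418 to 699 higher and 326 to 777 lower, against 629 and 586. The pair share differences, in percentage points, ranged from 0.118 to 0.172 for Slc25a12 with Slc25a13 and from 19.7 to 27.7 for Slc25a25 with Slc25a24, both Ex over mTg. They ranged from -29.6 to -21.6 for Slc25a25 with Slc25a24 and from -0.172 to -0.0705 for Slc25a4 with Slc25a5, both mTg over control, and from -11.7 to -8.72 for Slc25a34 with Slc25a35, Ex over mTg. Of 2049 alternatives for single members, 1991 kept their side of the threshold, 34 lost a call, 24 gained one and 0 reversed a called direction. Among the 1991, 49 had the other sign, all of members without a call in that comparison.

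Libraries with the same replicate number correlated between groups at -0.216 to 0.189, so the numbers were not taken as pairs, and not every library correlated best with its own number. With the replicate block, members higher and lower were 4 and 3 for Ex over control, 21 and 3 for mTg over control, and 2 and 22 for Ex over mTg. Slc25a33 was then lower in Ex (adjusted p = 0.031), while Slc25a38 in mTg (adjusted p = 0.0666) and Slc25a36 in Ex over mTg (adjusted p = 0.0598) lost their calls. The causes of these changes were not tested. Depth limits Slc25a53 (6 to 19 reads) and Slc25a13 in controls (9 to 19 reads).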
